A study of Mus musculus with 12 samples.

Results

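Bmper (BMP binding endothelial regulator) and 9 further genes that lead from bone morphogenetic proteins (BMPs) to hepcidin are described here in the livers of 24 h-fasted mice. The 10 genes are Bmper, the ligands Bmp2 and Bmp6, the BMP-responsive genes Id1, Id2, Id3, Smad6 and Smad7, the hepcidin gene Hamp, and Tmprss6. They were found by gene name among 56748 genes of the deposited count table, and all 10 had enough counts to be tested in every comparison of genotypes. Bmper was chosen by its counts in the DKO and SKO livers described below, so its values are a description and carry no test. The other 9 were chosen for their place in the same pathway, with results of these livers already known, and the comparison of DKO with SKO livers is given without a test for them as well.

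Liver mRNA was sequenced in 4 WT mice, 4 Cpt2 liver-specific KO mice (SKO) and 4 Atf3/Cpt2 liver-specific double KO mice (DKO), all after a 24 h fast. Cpt2 encodes the carnitine palmitoyltransferase of the inner mitochondrial membrane, which long-chain fatty acids need for oxidation, and Atf3 encodes a stress-induced transcription factor of the ATF/CREB family. The WT mice carry floxed Cpt1a, Cpt1b and Cpt2 genes according to their labels, which do not say whether their Atf3 is floxed. The deletions were made with Cre under the albumin promoter, which is active in hepatocytes, and is not known to delete genes in endothelial or stellate cells. The labels give neither the age nor the sex of the mice, nor whether animals were pooled, and the replicates were taken to be separate mice.

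BMPs are secreted ligands that bind pairs of type I and type II receptor kinases, which phosphorylate SMAD1, SMAD5 and SMAD8. With SMAD4 these enter the nucleus and switch on the Id genes and the inhibitory Smad6 and Smad7. In the liver, endothelial cells of the sinusoids supply BMP2 and BMP6 in response to iron, and hepatocytes answer with hepcidin, the hormone that closes the iron exporter ferroportin. Matriptase-2, the product of Tmprss6, restrains this route by cleaving the co-receptor hemojuvelin. BMPER is a secreted protein with chordin-like domains that binds BMPs outside the cell and can dampen or promote their signaling.

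The promoters of Bmper and of the hepcidin genes are shown because Bmper is the gene chosen by its values and because the BMP response of hepcidin is known to run through its proximal promoter. RefSeq promoter sequences on GRCm38.p6 were at hand for 6 of the 10 genes and for Hamp2, the close copy of Hamp. The 250 bases before the transcription start are printed 5′ to 3′ on the strand of the gene, and capitals mark matches to GGCGCC, the core of the BMP response element, or TGANTCA, the AP-1 site. Bmper lies on the plus strand at chr9:23222826-23223075, Hamp on the minus strand at chr7:30944030-30944279 and Hamp2 on the minus strand at chr7:30924182-30924431. The start used is that of RefSeq. GENCODE M21 spans Hamp2 (ENSMUSG00000056978) at chr7:30922372-30924681 and starts 2 of its 3 transcripts at 30924181, next to the stretch printed, but the third at 30924681, so the stretch lies inside the gene as GENCODE draws it.
Bmper: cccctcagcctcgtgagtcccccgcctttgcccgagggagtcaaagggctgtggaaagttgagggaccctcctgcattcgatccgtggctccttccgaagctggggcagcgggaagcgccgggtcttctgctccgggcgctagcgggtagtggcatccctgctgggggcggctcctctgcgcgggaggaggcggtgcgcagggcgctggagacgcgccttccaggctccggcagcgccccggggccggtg
Hamp: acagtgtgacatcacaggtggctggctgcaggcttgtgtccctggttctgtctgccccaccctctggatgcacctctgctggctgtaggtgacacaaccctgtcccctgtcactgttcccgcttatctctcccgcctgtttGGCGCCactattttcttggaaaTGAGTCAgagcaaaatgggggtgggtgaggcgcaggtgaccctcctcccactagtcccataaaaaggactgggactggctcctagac
Hamp2: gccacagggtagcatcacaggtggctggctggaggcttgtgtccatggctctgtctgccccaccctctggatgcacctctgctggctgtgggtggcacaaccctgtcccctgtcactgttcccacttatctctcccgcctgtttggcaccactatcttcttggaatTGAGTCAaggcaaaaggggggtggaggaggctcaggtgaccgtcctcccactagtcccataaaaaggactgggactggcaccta
The Hamp promoter held 1 match to GGCGCC, whose first base lay 109 bases before the start, and Hamp2 held none, although 91.9% of 247 aligned bases were identical between these promoters. GGCGCC occurred in 9.59% of 32851 promoters of the same length. Each hepcidin promoter held 1 AP-1 match, 87 bases before the start in Hamp and 84 bases in Hamp2, while 6.75% of all promoters held at least 1. The Bmper promoter, with 71.6% G and C, held no match to these letters, nor to the cyclic AMP response element TGACGTCA, to its shorter form TGACGT, which lies inside the full element, or to TGATGNAA, a composite site for C/EBP and ATF factors. Those letters were found on either strand in 1.55%, 6.47% and 3.45% of all promoters. Of the other promoters at hand, that of Id2 held 1 GGCGCC, whose first base lay 231 bases before the start, and those of Id3, Smad6 and Bmp6 held none of the motifs.

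By the GRCm38 annotation of GENCODE M21, Bmper (ENSMUSG00000031963) spans chr9:23223076-23485200, Bmp2 (ENSMUSG00000027358) chr2:133552159-133562885 and Bmp6 (ENSMUSG00000039004) chr13:38345107-38500302. Id1 (ENSMUSG00000042745) lies at chr2:152736251-152737410, Id2 (ENSMUSG00000020644) at chr12:25093799-25097140 and Id3 (ENSMUSG00000007872) at chr4:136143497-136145755. Smad6 (ENSMUSG00000036867) spans chr9:63953076-64022059 and Smad7 (ENSMUSG00000025880) chr18:75367529-75395935. Hamp (ENSMUSG00000050440) lies at chr7:30942368-30944032 and Tmprss6 (ENSMUSG00000016942) at chr15:78439667-78468634. The counts are sums over each gene, so exons and isoforms cannot be told apart.

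Depth ran from 14710304 to 20030055 gene counts in a liver. Levels are given as CPM, counts scaled to a common library size by edgeR's TMM factors over the 12 livers, and 3 counts correspond to 0.145 to 0.195 CPM, which covers counting error only. Cpt2 was at 199 to 250 CPM in WT livers, 109 to 159 in SKO livers and 99.9 to 126 in DKO livers. Atf3 had 17 to 39 counts in WT livers, 259 to 1056 in SKO livers and 164, 177, 265 and 5 in the DKO livers, so the fourth DKO liver stood apart and the other DKO livers kept more Atf3 counts than WT. SKO replicate 3 and DKO replicate 4 had 18063 and 20855 Xist counts and 2 and 0 counts over 4 Y-linked genes (Uty, Kdm5d, Ddx3y and Eif2s3y). The other 10 livers had at most 19 Xist counts and 2741 to 4294 Y-linked counts, and the study describes the sequenced mice as male. By these counts SKO replicate 3 and DKO replicate 4 looked female and all WT livers male, so sex was not balanced between the genotypes. Values of DKO against WT are therefore given also without DKO replicate 4. SKO against WT gave the same counts of these genes and of pathway genes past the threshold with and without SKO replicate 3.

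Bmper was close to the limit of counting in WT livers, high in every SKO liver and low again in DKO livers. WT livers held 0.468, 0.190, 2.73 and 0.165 CPM, from 9, 3, 42 and 3 counts. SKO livers held 7.53, 16.7, 20.5 and 14.6 CPM, from 116, 326, 395 and 260 counts. DKO livers held 1.16, 2.51, 1.27 and 0.746 CPM, from 24, 41, 25 and 14 counts. The lowest SKO liver was thus above the highest WT and the highest DKO liver, while WT and DKO livers overlapped. The mean was 0.889 ± 1.24 CPM in WT livers, 14.8 ± 5.45 in SKO livers and 1.42 ± 0.761 in DKO livers (SD, n = 4). The mean of SKO livers was 16.7 times that of WT, and the mean of DKO livers was 0.0958 of that of SKO and 1.60 times that of WT. On the log2 scale the fitted differences were 4.10 ± 0.65 (SE) for SKO against WT, -3.38 ± 0.40 for DKO against SKO and 0.70 ± 0.80 for DKO against WT. WT replicate 3 carried most WT counts, and without it the difference of SKO from WT was 5.68 and that of DKO from WT 2.31.

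**Figure D1:**
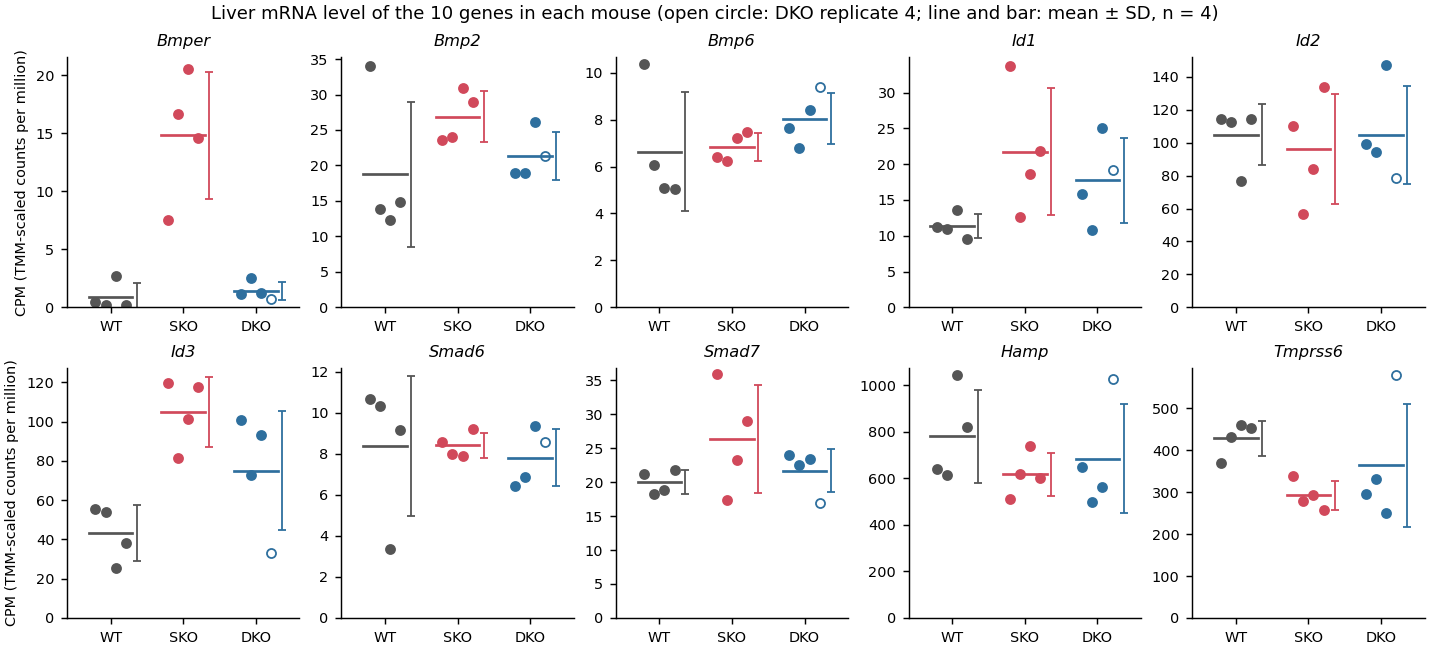
Level of each of the 10 genes in CPM (linear axis from 0) in the 4 WT, 4 SKO and 4 DKO livers, with 1 point per liver, a line at the mean and a bar of 1 SD. Bmper lies between 7.53 and 20.5 CPM in SKO livers and at or below 2.73 CPM in all others, Id3 of all SKO livers lies above all WT livers, and the open circle of DKO replicate 4 lies apart from the other DKO livers for Id3, Hamp and Tmprss6.

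DKO replicate 4 held 0.746 CPM of Bmper, and the other 3 DKO livers lay between 1.16 and 2.51 CPM. Without DKO replicate 4 the log2 difference of DKO from WT was 0.91 ± 0.78. Summed markers of sinusoidal endothelial cells were 374 to 764 CPM in WT livers, 507 to 638 in SKO livers and 429 to 603 in DKO livers. Of their 14 genes, 0 passed the threshold in SKO livers, against 32.1% of all genes. In DKO livers 0 passed as well, against 10.5% of all genes. Summed stellate cell markers were 299 to 360, 413 to 569 and 375 to 479 CPM in the same order. Of these 12 markers, 2 passed in SKO livers, or 16.7% against 32.1% of all genes, and 3 had a log2 fold change below 0. The 2 were Dcn, with means of 116 CPM for WT and 178 for SKO livers, and Ecm1, with 104 and 153. Both had the highest CPM of the 12 and so weighed most in the sum. In DKO livers 0 of the 12 passed, against 10.5% of all genes. The source of the Bmper reads among these cells was not tested. In a whole liver, fewer cells of a type and less RNA per cell cannot be told apart.

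The BMP ligands made by the endothelium were not shown to differ between genotypes. Bmp2, which with Bmp6 sets the basal hepcidin level, was at 34.0, 13.8, 12.3 and 14.8 CPM in WT livers, 23.6, 24.0, 31.0 and 29.0 in SKO livers and 18.9, 19.0, 26.2 and 21.4 in DKO livers. WT replicate 1 was above every other liver, and the other 3 WT livers were below every SKO and DKO liver. Against WT, the log2 fold change was 0.51 ± 0.29 in SKO (adjusted p = 0.206) and 0.20 ± 0.31 in DKO livers (adjusted p = 0.718), by edgeR's quasi-likelihood (QL) method, with all genes tested entering the Benjamini-Hochberg adjustment, as for every adjusted p here. Without WT replicate 1 the values were 0.96 (adjusted p = 0.00171) and 0.64 (adjusted p = 0.0701), so this liver decided the call in SKO. The same liver had the highest sum of sinusoidal endothelial markers, 764 CPM against 374 to 426 in the other WT livers, and the part of these cells in its Bmp2 level was not tested.

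Bmp6, the ligand that follows liver iron stores, was at 10.4, 6.08, 5.07 and 5.06 CPM in WT livers, 6.43, 6.24, 7.22 and 7.47 in SKO livers and 7.62, 6.80, 8.39 and 9.37 in DKO livers. WT replicate 1 was again the highest of the 12, and the groups overlapped. The log2 fold change was 0.03 in SKO (adjusted p = 0.934, 95% interval -0.50 to 0.57) and 0.29 in DKO livers (adjusted p = 0.494, -0.29 to 0.86). With DKO replicate 4 left out, the value in DKO livers was 0.20 (adjusted p = 0.604), and that of Bmp2 was 0.19 (adjusted p = 0.692).

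Among the BMP-responsive genes, Id1 and Id3 rose in SKO livers, whereas Id2, Smad6 and Smad7 did not pass the threshold. Id3, an inhibitor of basic helix-loop-helix factors that BMP-activated SMADs switch on directly, was at 55.4, 54.0, 25.5 and 38.1 CPM in WT and 120, 81.3, 101 and 117 in SKO livers. DKO livers held 101, 72.8, 93.3 and 33.2 CPM. All SKO livers were above all WT livers, and of the DKO livers only replicate 4 lay within the WT range. In SKO livers the log2 fold change was 1.27 ± 0.23 (adjusted p = 0.00139). In DKO livers it was 0.81 ± 0.35 (adjusted p = 0.156) with all 4 livers and 1.05 ± 0.23 (adjusted p = 0.00528) without DKO replicate 4.

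Id1, which hepatocytes and endothelial cells switch on through the same SMADs, was at 11.3, 11.0, 13.7 and 9.51 CPM in WT livers, 33.8, 12.7, 18.6 and 21.9 in SKO livers and 15.9, 10.8, 25.1 and 19.2 in DKO livers. SKO replicate 2 and DKO replicate 2 lay within the WT range and the other KO livers above it. On the log2 scale the fold change was 0.93 ± 0.26 in SKO (adjusted p = 0.0163) and 0.66 ± 0.24 in DKO livers (adjusted p = 0.106). Leaving out WT replicate 4 moved the first to an adjusted p of 0.0525. Without DKO replicate 4 the second was 0.62 (adjusted p = 0.0765).

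Id2 was at 115, 113, 77.0 and 115 CPM in WT livers, 110, 56.7, 84.1 and 134 in SKO livers and 99.1, 94.1, 147 and 78.8 in DKO livers. The groups overlapped, with log2 fold changes of -0.13 ± 0.23 in SKO (adjusted p = 0.724) and 0.02 ± 0.21 in DKO livers (adjusted p = 0.97), or 0.12 (adjusted p = 0.65) without DKO replicate 4. In SKO livers the 95% interval of Id2, -0.64 to 0.38, lay wholly below that of Id3, 0.77 to 1.77, although the difference between the genes was not tested.

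Smad7, an inhibitory SMAD that blocks receptors and also restrains Hamp, was at 21.3, 18.2, 18.8 and 21.8 CPM in WT livers, 35.9, 17.3, 23.2 and 29.0 in SKO livers and 23.9, 22.5, 23.4 and 16.9 in DKO livers. SKO replicate 2 was below all WT livers and the other SKO livers above them. The log2 fold change in SKO livers was 0.39 ± 0.20 (adjusted p = 0.158), or 0.55 (adjusted p = 0.0275) without SKO replicate 2, and in DKO livers 0.13 ± 0.14 (adjusted p = 0.569), or 0.22 (adjusted p = 0.151) without DKO replicate 4. Smad6, the inhibitory SMAD that acts mainly in BMP signaling, was at 10.7, 10.3, 3.38 and 9.18 CPM in WT livers. It was at 7.90 to 9.21 CPM in SKO livers and 6.42 to 9.35 in DKO livers, inside the range of WT. Its log2 fold change was 0.00 ± 0.29 in SKO (adjusted p = 0.996) and -0.09 ± 0.32 in DKO livers (adjusted p = 0.877), or -0.15 (adjusted p = 0.762) without DKO replicate 4.

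Hepcidin mRNA was not shown to differ between genotypes, while Tmprss6 fell in SKO livers. Hamp was at 638, 614, 1045 and 821 CPM in WT livers, 511, 617, 737 and 602 in SKO livers and 650, 500, 563 and 1025 in DKO livers. SKO and WT livers overlapped, and DKO replicate 4 was close to the highest WT liver. The log2 fold change was -0.34 ± 0.19 in SKO (adjusted p = 0.194, 95% interval -0.75 to 0.07) and -0.17 ± 0.26 in DKO livers (adjusted p = 0.709, -0.76 to 0.42). Without DKO replicate 4 it was -0.44 ± 0.19 (adjusted p = 0.0908, -0.86 to -0.03). WT replicate 3, the highest of the 12, carried much of these differences, since without it they were -0.18 in SKO livers (adjusted p = 0.503) and -0.00 in the 4 DKO livers (adjusted p = 0.997).

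Tmprss6, the brake on hemojuvelin, was at 369, 432, 460 and 452 CPM in WT livers, 340, 280, 292 and 259 in SKO livers and 295, 332, 250 and 579 in DKO livers. All SKO livers were below all WT livers, as were DKO replicates 1 to 3, and DKO replicate 4 was above every WT liver. In SKO livers the log2 fold change was -0.55 ± 0.13 (adjusted p = 0.00762), which became adjusted p = 0.0786 in 1 fit of all 12 livers. In DKO livers it was -0.22 ± 0.25 (adjusted p = 0.595), and -0.55 ± 0.13 (adjusted p = 0.00619) without DKO replicate 4. Of 10 hepatocyte markers 5 were lower in SKO livers and 0 higher, where 32.1% of all genes passed, and 9 of the 10 had a log2 fold change below 0, as Tmprss6 did. Without DKO replicate 4, 6 of the markers were lower in DKO livers and 0 higher, where 35.9% of all genes passed. Their sum was 84820 to 104200 CPM in WT livers, 48290 to 79720 in SKO livers and 106600 in DKO replicate 4. Alb was most of it in the WT livers and DKO replicate 4. In SKO replicates 1 and 4 and DKO replicates 1 to 3, Alb was below the other 9 markers together. Without Alb the other 9 summed to 32970 to 42900 CPM in WT livers, 24930 to 35200 in SKO livers and 32120, 28500, 24990 and 32460 in the DKO livers. In DKO replicate 4, 3 of the 10 markers were above all WT livers, 4 below them and 3 among them. The part of the share of hepatocytes in the Tmprss6 values was not tested.

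**Figure D2:**
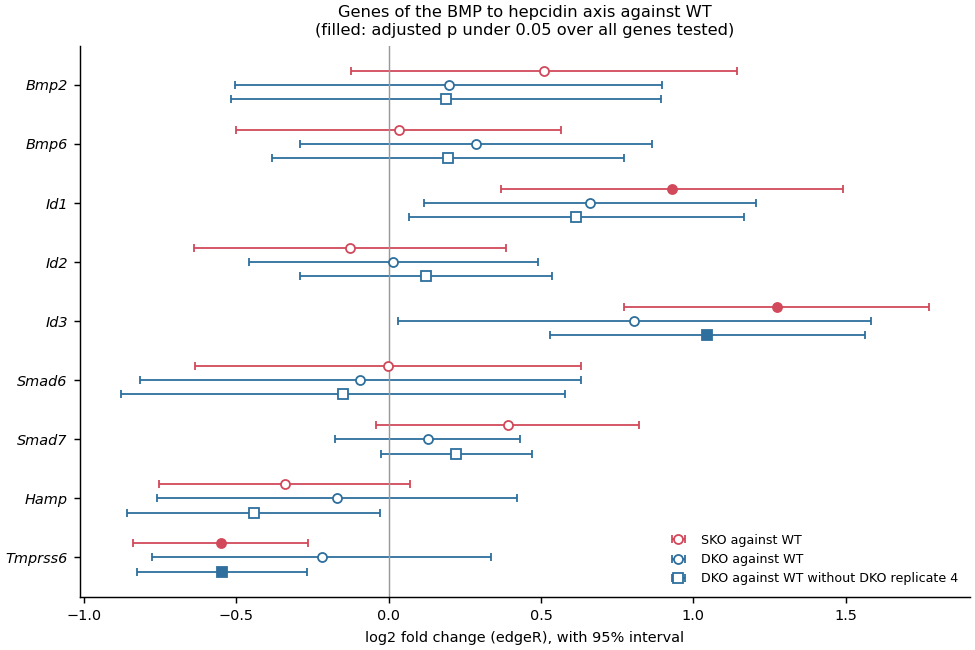
Log2 fold change against WT (x axis, with 95% interval) of the 9 genes other than Bmper, in SKO livers, in DKO livers and in DKO livers without replicate 4, with filled symbols for an adjusted p under 0.05. Id1, Id3 and Tmprss6 are filled in SKO livers, none in the 4 DKO livers, and Id3 and Tmprss6 without DKO replicate 4.

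Of the 9 genes other than Bmper, 3 passed the threshold in SKO livers, Id1 and Id3 higher and Tmprss6 lower. This share of 33.3% was near the 32.1% of all 14261 genes tested, of which 16.7% were higher and 15.4% lower. For 2 of the 9, Id3 and Tmprss6, SKO and WT livers did not overlap, against 33.2% of all genes. In DKO livers 0 of the 9 passed by edgeR or by DESeq2, with 2 at an unadjusted p under 0.05, against 10.5% of 14448 genes, 6.06% higher and 4.39% lower. The groups overlapped for all 9, against 16.8% of all genes that did not overlap. Without DKO replicate 4, Id3 and Tmprss6 passed, and 35.9% of 14634 genes did so, 18.4% higher and 17.5% lower. SKO and DKO livers were set against the same 4 WT livers, so these values are not independent.

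Between DKO and SKO livers the values of the 9 genes are given as a description. The log2 difference of DKO from SKO was -0.31 for Bmp2, 0.26 for Bmp6, -0.26 for Id1, 0.15 for Id2 and -0.47 for Id3. It was -0.08 for Smad6, -0.26 for Smad7, 0.18 for Hamp and 0.34 for Tmprss6. The livers of both genotypes overlapped for each of these 9 genes. Without DKO replicate 4 the difference was -0.23 for Id3, -0.10 for Hamp and 0.00 for Tmprss6. Over all 14363 genes, 0.0209% or 3 genes passed the threshold, from which nothing is read for Bmper since it was chosen on this comparison, and the groups did not overlap for 3.94%.

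Levels of different genes can be set side by side only per length, for which the deposited FPKM values were used. In WT livers Hamp led with a mean of 1990 FPKM, followed by Tmprss6 at 133, Id2 at 44.9, Id3 at 25.2, Id1 at 10.3, Bmp2 at 5.51, Smad7 at 4.63, Smad6 at 2.73, Bmp6 at 1.78 and Bmper at 0.193. The WT livers of neighbours in this order overlapped for Id1 and Bmp2, for Bmp2 and Smad7, and for Smad6 and Bmp6, and did not overlap for the other pairs of neighbours. In SKO livers Bmper had a mean of 3.17 FPKM and a range of 1.60 to 4.39, which overlapped those of Smad6 at 2.55 to 2.94, Bmp6 at 1.67 to 1.96 and Smad7 at 3.99 to 8.17. In DKO livers it was back at the lowest of the 10 mean levels, 0.303 FPKM.

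The wider pathway was covered by 6 lists of 82 genes other than Bmper, some of them on more than 1 list. Of 66 tested in SKO livers, 10 were higher and 12 lower than in WT livers, or 33.3% against 32.1% of all genes. Of 65 tested in DKO livers, 3 were higher and 3 lower, 9.23% against 10.5% of all genes. With DKO replicate 4 left out these counts were 8 and 12 of 66, 30.3% against 35.9%. The median log2 fold change over the genes tested was 0.04 in SKO livers and 0.02 in DKO livers, with 0.03 over all genes in both. Without WT replicates 1, 2 or 4 or DKO replicates 1, 2 or 3, the number past the threshold in DKO livers was 1 or 2. The count over all genes, 1510 with the 4 DKO livers, also moved with the liver left out. These numbers are therefore not read as a result about the pathway.

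Of 10 tested BMP and activin ligands, 1 was higher and 2 were lower in SKO livers, 30% against 32.1% of all genes. Inhbb, a subunit of activin B, which can also drive hepcidin, was at 3.61 to 6.08 CPM in WT and 6.79 to 20.4 in SKO livers, a log2 fold change of 1.34 ± 0.36 (adjusted p = 0.0149). Inhba, the subunit of activin A, fell by 1.29 ± 0.31 on the log2 scale (adjusted p = 0.00775), from 5.19 to 6.38 CPM in WT to 1.28 to 3.64 in SKO livers. Bmp7, of the same BMP subgroup as Bmp6, fell by 1.27 ± 0.34 (adjusted p = 0.0131) and stayed at or below 2.41 CPM in every liver. The activin subunits thus moved in opposite directions. In the 4 DKO livers 0 of 10 tested ligands passed, against 10.5% of all genes. Among DKO replicates 1 to 3, Inhbb was higher by 0.90 (adjusted p = 0.021) and Inhba lower by a log2 fold change of -0.70 (adjusted p = 0.0231). They were 2 of 9 tested ligands, 22.2% against 35.9% of all genes.

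Of 14 tested extracellular modulators other than Bmper, 1 was higher and 3 were lower in SKO livers, 28.6% against 32.1% of all genes. Chrd, which encodes the BMP antagonist chordin, was at 8.65 to 14.1 CPM in WT and 5.84 to 7.83 in SKO livers, with a log2 fold change of -0.75 ± 0.19 (adjusted p = 0.0106). Bmp1, a protease that cleaves chordin and is no BMP, was at 178 to 256 CPM in WT and 107 to 133 in SKO livers, with -0.81 ± 0.14 (adjusted p = 0.000947). Antagonist and protease fell together. Kcp, a chordin-like protein, had -0.96 (adjusted p = 0.0116), and Chrdl2, a chordin-like BMP binder, had 1.48 (adjusted p = 0.0165) at no more than 2.13 CPM in any liver. Chrd and Bmp1 also passed in the 4 DKO livers, with -0.65 (adjusted p = 0.0457) and -0.56 (adjusted p = 0.0341), and without DKO replicate 4 they had -0.59 (adjusted p = 0.0243) and -0.58 (adjusted p = 0.00558). In the 4 DKO livers they were 2 of 13 tested, 15.4% against 10.5% of all genes, and Kcp had -0.49 (adjusted p = 0.177). Without DKO replicate 4, 4 of 15 passed, 26.7% against 35.9% of all genes.

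Of 11 tested receptors and co-receptors, Acvr1 alone passed in SKO livers, 9.09% against 32.1% of all genes. It encodes the type I receptor ALK2, through which BMP6 drives hepcidin, and was at 11.6 to 14.9 CPM in WT livers, 8.03 to 10.7 in SKO livers and 7.17 to 11.1 in DKO livers. Its log2 fold change was -0.58 ± 0.15 in SKO (adjusted p = 0.0134) and -0.55 ± 0.17 in DKO livers (adjusted p = 0.0663), and it passed in DKO livers without replicate 4, with -0.65 ± 0.16 (adjusted p = 0.0096). Both KO groups lay wholly below WT. Of the 11, 0 passed in the 4 DKO livers, against 10.5% of all genes, and 2 without DKO replicate 4, 18.2% against 35.9%. Hjv, the co-receptor hemojuvelin that matriptase-2 cleaves, had 0.28 ± 0.18 in SKO (adjusted p = 0.261) and 0.33 ± 0.18 in DKO livers (adjusted p = 0.27), or 0.44 (adjusted p = 0.0394) without DKO replicate 4.

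Of 12 SMADs and their regulators, 4 were higher in SKO livers and 0 lower, 33.3% against 32.1% of all genes. Fkbp1a, whose product FKBP12 holds type I receptors inactive and restrains hepcidin, was at 47.0 to 56.4 CPM in WT livers, 93.9 to 137 in SKO livers and 99.0, 102, 105 and 49.8 in DKO livers. DKO replicate 4 was again within the WT range. Against WT the log2 difference was 1.20 ± 0.15 in SKO (adjusted p = 0.000105) and 0.81 ± 0.22 in DKO livers (adjusted p = 0.0442), or 1.00 (adjusted p = 2.59e-05) without DKO replicate 4. Ppm1a, a phosphatase of SMADs, had 0.52 (adjusted p = 0.00332), the co-repressor Ski 0.38 (adjusted p = 0.0306) and the common Smad4 0.38 (adjusted p = 0.0378) in SKO livers. In the 4 DKO livers Ppm1a, Ski and Smad4 did not pass, at 0.18, 0.45 and 0.27 (adjusted p = 0.319, 0.0935 and 0.303). Fkbp1a was thus the 1 of 12 past the threshold there, 8.33% against 10.5% of all genes. Without DKO replicate 4, 3 of 12 passed, 25% against 35.9%. As background, FKBP12, PPM1A and SKI are restraints on the pathway, and SMAD4 is shared with the TGF-beta route.

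Of 10 BMP target genes, Id1, Id3 and Atoh8 were higher in SKO livers and 0 lower, 30% against 32.1% of all genes. Atoh8, a transcription factor that BMPs and iron raise in hepatocytes, was at 18.1, 21.1, 25.3 and 28.8 CPM in WT livers, 31.4, 38.1, 38.3 and 26.0 in SKO livers and 33.8, 37.5, 41.6 and 38.9 in DKO livers. All DKO livers, replicate 4 included, were above all WT livers. The log2 fold change was 0.52 ± 0.17 in SKO (adjusted p = 0.0387) and 0.72 ± 0.15 in DKO livers (adjusted p = 0.0221), or 0.70 (adjusted p = 0.00472) without DKO replicate 4. Atoh8 was the 1 of 10 that passed in the 4 DKO livers, 10% against 10.5% of all genes. Without DKO replicate 4, 2 of 10 passed, 20% against 35.9%.

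Of 17 tested genes for hepcidin and its regulators, 1 was higher and 6 were lower in SKO livers, 41.2% against 32.1% of all genes, of which 15.4% were lower. Gdf15, a stress cytokine of the same superfamily that has been linked to low hepcidin, was at 1.81 to 5.59 CPM in WT livers, 39.5 to 67.5 in SKO livers and 31.4 to 113 in DKO livers. It was higher by 4.17 ± 0.33 on the log2 scale in SKO (adjusted p = 6.1e-06) and by 4.81 ± 0.49 in DKO livers (adjusted p = 0.00337), or 5.09 (adjusted p = 8.79e-07) without DKO replicate 4. Trf, which encodes the iron carrier transferrin, was at 11210 to 13010 CPM in WT and 3822 to 4241 in SKO livers, with -1.61 ± 0.14 (adjusted p = 1.25e-05). Tfr2, a hepatocyte sensor of transferrin-bound iron, had -0.46 ± 0.15 (adjusted p = 0.0321). Il6ra and Stat3, the inflammatory route to Hamp, had -1.60 (adjusted p = 0.0031) and -0.47 (adjusted p = 0.016). In DKO livers Il6ra passed as well, with -1.72 (adjusted p = 0.0255), or -2.18 (adjusted p = 0.000115) without DKO replicate 4. Trf, Tfr2 and Stat3 did not pass in the 4 DKO livers, at -0.84, -0.37 and -0.37 (adjusted p = 0.224, 0.189 and 0.0918). Of the 17 genes, 2 passed in the 4 DKO livers, 11.8% against 10.5% of all genes. Without DKO replicate 4, 9 passed, 52.9% against 35.9%.

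Hamp2 fell in SKO livers. It was at 5.15, 5.89, 7.48 and 13.7 CPM in WT and 0.389, 1.02, 1.82 and 0.0561 in SKO livers, a log2 fold change of -3.25 ± 0.59 (adjusted p = 0.00152). DKO livers held 0.627, 0.306, 0.915 and 66.8 CPM, so DKO replicates 1 to 3 lay with SKO and replicate 4 was the highest of the 12. The livers with Xist counts, SKO replicate 3 and DKO replicate 4, had the highest Hamp2 and Hamp levels of their genotypes. The part of sex in these levels was not tested. The log2 fold change in DKO livers was 1.12 ± 1.35 (adjusted p = 0.62), and -3.66 ± 0.45 (adjusted p = 0.000116) without DKO replicate 4. The longest Hamp and Hamp2 transcripts are 94.6% identical over 410 aligned bases, and 60 of 361 stretches of 50 bases of Hamp also stand in Hamp2. How the counting treated reads that fit both genes is not given, so Hamp2 counts are uncertain, and a small share of Hamp reads would be a large share of Hamp2.

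**Figure D3:**
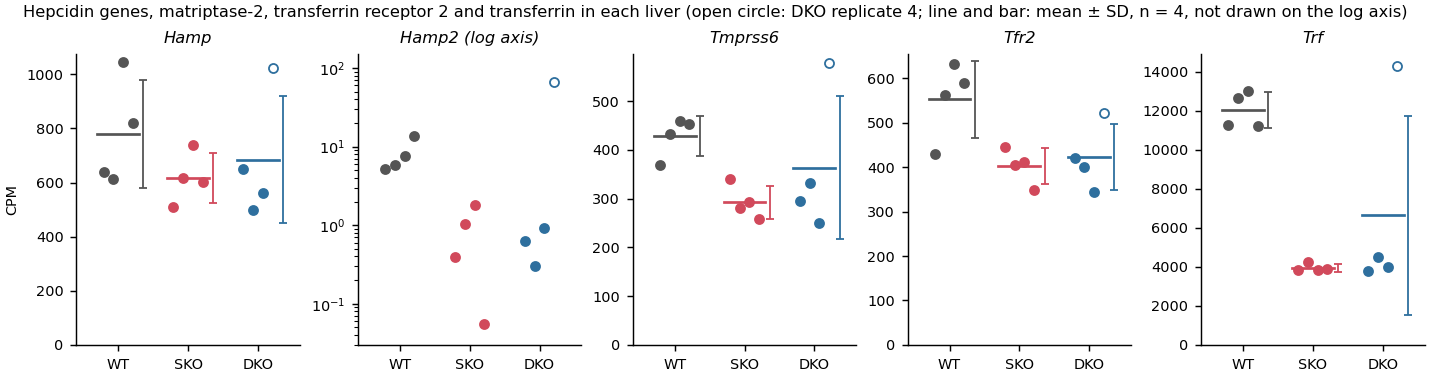
Level in CPM of Hamp, Hamp2 (log axis), Tmprss6, Tfr2 and Trf in each WT, SKO and DKO liver, with the mean and SD on the linear axes. Trf of the SKO livers and of DKO replicates 1 to 3 lies at 3769 to 4519 CPM, whereas the open circle of DKO replicate 4 lies at 14270 CPM above the WT livers, as it does for Hamp2 at 66.8 CPM.

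The other cell types give the setting of these whole-liver values. Against WT, 2 of 12 stellate cell markers and 2 of 10 macrophage markers were higher in SKO livers, 2 of 4 tested cholangiocyte markers were lower, and of 5 tested erythroid markers 2 were higher and 1 lower, where 32.1% of all genes passed. Summed macrophage markers were 226 to 464 CPM in WT livers, 238 to 545 in SKO livers and 142 to 458 in DKO livers. Cholangiocyte markers summed to 27.9 to 33.3, 7.41 to 14.5 and 9.60 to 31.3 CPM, and erythroid markers to 113 to 249, 156 to 533 and 128 to 714 CPM. In DKO livers without replicate 4, 9 of 10 macrophage markers passed, 2 higher and 7 lower, where 35.9% of all genes passed. The part of these cells in the results above was not tested.

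The genes whose log2 CPM followed Bmper most closely over the 12 livers, out of 14920 genes, were Fnta (Pearson r = 0.94), Gm20560 (0.92), Wdr93 (0.91), Vps41 (0.91) and Mpc1-ps (0.91). Their spans were unlike, since Fnta was at 34.0 to 37.3 CPM in WT and 41.2 to 49.6 in SKO livers, whereas Wdr93 was at 1.37 to 2.28 and 5.39 to 9.26 CPM. Those that followed Hamp most closely were Sqle (0.94), Klhl13 (0.93), Ces1c (0.91), Msmo1 (0.90) and Zfp970 (0.90). Sqle and Msmo1 encode enzymes of cholesterol synthesis. The points share genotype and depth, and these values are a description with no test.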

How the data were processed

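Liver RNA of 12 mice was sequenced, and each liver was grouped by the genotype of its label. The authors deposited raw read counts per Ensembl gene without normalization, and FPKM values, which equal the counts scaled by gene length and library size times 1 constant per liver (0.886 to 1.17). The submitters' processing notes name HISAT2, GRCm38 and mm10. The counting program, its strand setting and the annotation release are not given in the sources used here. The deposited gene coordinates differed from GRCm38 in GENCODE M21 for 50601 of 52073 shared genes, so locations were taken from GENCODE by gene ID. Tables of the authors' own comparisons hold group means, fold changes and p-values, with columns named as DESeq2 writes them, and were not used.

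Each pair of genotypes was fitted on its 8 livers by the two-sided quasi-likelihood test of edgeR 4.0.16 (R 4.3.3) after TMM scaling and filterByExpr. The Benjamini-Hochberg adjustment ran across every gene tested, with a threshold of 0.05. The step was tested only on simulated counts with equal scatter for all genes and no liver that stood apart. That check therefore does not cover a liver such as DKO replicate 4. Intervals are 95% intervals of the fitted log2 fold change. Log2 CPM for likeness used a prior count of 2. DESeq2 1.42.0, RLE normalization, no filter on low counts, 1 fit of all livers, the replicate number as a block, and leaving out livers were alternatives.

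The genes and lists were chosen with earlier results of these data known. Besides the 10 genes, the text names up to 6 genes per pathway list with the smallest p in either KO against WT, the deleted, Xist and Y-linked genes, and the 5 genes most like Bmper and Hamp. A gene that this rule also names is not reported here. Livers of a genotype differed beyond sampling noise, with a chi-square of at least 20.1 per degree of freedom. The labels do not say that the replicates are separate mice, so p-values measure only the spread between these livers. Depth was 14710304 to 20030055 counts per liver.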

Additional observations from a re-analysis of the deposited data

Results flagged for a closer look

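In each genotype the lowest and highest liver of each of the 10 genes were compared with the rest by Dixon's criterion for 4 samples, and 3 of 30 groups of values were singled out, where chance gives about 1.5. Bmper in WT replicate 3 was at 2.73 CPM, against 0.165 to 0.468 in the other WT livers. Bmp2 in WT replicate 1 was at 34.0 CPM, against 12.3 to 14.8 in the other WT livers. Id2 in WT replicate 3 was at 77.0 CPM, against 113 to 115 in the other WT livers. In the same replicate 3, Smad6 at 3.38 CPM and Id3 at 25.5 CPM were the lowest of the WT livers.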

How the results depend on the processing

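Alternatives were run for the 10 genes and for the counts past the threshold, and for the other pathway genes by leaving out DKO replicate 4 only. Id1, Id3 and Tmprss6 kept the direction of their fold change in SKO against WT under every alternative run. In SKO against WT, Tmprss6 did not pass in 1 fit of all 12 livers, nor Id1 without WT replicate 4, while Bmp2 passed without WT replicate 1 and Smad7 without SKO replicate 2. DKO against WT depended on single livers. Its 1510 genes past the threshold became 2635 with DESeq2, 691 with the replicate number as a block and 5253 without SKO replicate 3 and DKO replicate 4. Leaving out 1 liver gave 244 to 5253. Its pathway genes past the threshold numbered 6, with 3 under the replicate block, 20 without the livers with Xist counts and 1 to 20 without 1 liver. Of the 9 genes other than Bmper, 2 passed without the livers with Xist counts and 0 to 2 without 1 liver. In DKO against SKO, the 3 genes past the threshold became 97 with DESeq2, 35 without the filter on low counts, 0 under the replicate block, 21 without the livers with Xist counts and 0 to 15 without 1 liver. The cause of these shifts was not tested. The replicate numbers share only a number, since the deviations of same-numbered livers correlated at -0.34 to 0.09 and none of 12 pairs exceeded 0.1, and the block changed no call of the 9 genes. Depth limits Bmper in WT livers, where 2 of 4 held 3 counts.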
